A study of Rattus norvegicus with 24 samples.

Results

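One dose of MDPV was compared with saline in the left dorsal striatum of male Long Evans rats aged 80 to 90 days. MDPV (methylenedioxypyrovalerone) is a synthetic cathinone that blocks the transporters for dopamine and noradrenaline. The comparison used the 16 arrays whose treatment group was labelled acute or saline, 8 of each, of 24 arrays in the series. Saline rats had 1 saline injection a day for 5 days. Acute rats had saline in the same way until the last day, when the injection held MDPV at 1 mg/kg instead. Striatum was taken 24 h after the last injection in both groups, so every rat had been handled and injected on 5 days. The other 8 arrays, from rats given MDPV on all 5 days, entered the model only to help estimate the spread. They also counted in choosing which probes were kept and which probe stands for a gene. The tissue was dissected by hand and its RNA measured in bulk on Agilent one-colour arrays, so fewer cells of a type and less RNA per cell cannot be told apart. The series design gives 6 rats per group, while each group has 8 arrays. Arrays of a group that share a title letter were therefore averaged, which left 6 units per group, and whether such a pair is 1 rat is not stated. With the letter as a random block, the correlation that limma estimated between arrays sharing a letter was -0.37, so such arrays were less alike than others of their group. Every such pair was split over different slides and that fit had no term for slide. Letter and slide therefore cannot be told apart in this estimate.

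The dorsal striatum is made mostly of GABA-releasing projection neurons. Those of the direct pathway carry the D1 dopamine receptor and the peptides dynorphin and substance P. Those of the indirect pathway carry the D2 receptor, an adenosine receptor and enkephalin. Dopamine acting at D1 receptors raises cAMP and switches on immediate early genes within minutes to hours, and these transcripts usually decay quickly. The arrays here read the tissue a day later.

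All values are log2 processed signals relative to the 75th percentile of the same array, so 0 marks that percentile and a step of 1 is a 2-fold change. Differences are acute minus saline. Each array had 58717 spots, of which 50.7% to 71.3% were well above background and none was saturated, and the precision is limited by the number of arrays. The 16 arrays lay on 3 slides, with 3 saline and 2 acute arrays on slides 1 and 2, and 2 saline and 4 acute arrays on slide 3. The groups were not balanced over the rows of the slides: 5 acute and 2 saline arrays lay in the first row, and 3 acute and 6 saline arrays in the second. The labels give no replicate numbers, and those used here follow the order of the arrays in the series within each group. Saline replicate 4, with the title H3 and on slide 2, stood apart from the other 15 arrays. Its markers of hypothalamus summed to 15.8 times the array's 75th percentile, against 0.767 to 2.14 on the acute arrays and a saline median of 1.19. Its markers of the direct and indirect pathways summed to 51.7, the lowest of all, against 77.2 to 126 on the acute arrays. Gene differences and list medians below are also given without it where leaving it out turned their sign, or moved them by more than 0.1 and by over 1.5 times. Transcripts of striatal neurons, Drd1, Drd2, Adora2a, Penk, Foxp1 and Bcl11b, were well above background on all 8 acute and all 8 saline arrays. Saline replicate 4 was among these arrays, so detection does not tell how much other tissue an array held.

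No gene differed between the groups past an adjusted p of 0.05 in limma, 0 of 20898 genes tested (0%), and the smallest adjusted p was 0.9997. At an unadjusted p under 0.05, 131 genes were higher (0.627%) and 202 were lower (0.967%) in the acute group, against 1044.9 genes that the threshold alone would give. With slide as a block, on all arrays as separate samples, 155 genes were higher (0.742%) and 158 were lower (0.756%), again with none past an adjusted p of 0.05. No gene had all 8 acute arrays above all 8 saline arrays (0%) and none had them all below (0%). On the 6 averaged units per group, 4 genes lay wholly above (0.0191%) and 2 wholly below (0.00957%). Of these 6, named here after their values were seen, 3 have a symbol. Cmtm8 lay below, and so did Phykpl, an enzyme of hydroxylysine breakdown, with a difference of -0.43 (SE 0.16). Treml1, a receptor of platelets, lay above with a difference of 0.50 and an SE of 0.21. It was well above background on 5 acute and 3 saline arrays. Probes were kept at a 0.5 share of the arrays of any group, which Treml1 reached in acute and not in saline.

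For most genes the interval of the difference was narrow. The median difference over all genes was -0.002, the median absolute difference 0.079 and the median SE 0.139. The 95% interval of the difference lay within 1 log2 unit of 0 for 19807 genes (94.8%), and within 0.5 for 14054 (67.3%). Only 35 genes had an absolute difference over 1, and 480 had one over 0.5. Saline units were the more variable, with a median SD over genes of 0.261 against 0.216 in the acute units. Without saline replicate 4 the saline median SD was 0.228.

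**Figure D1:**
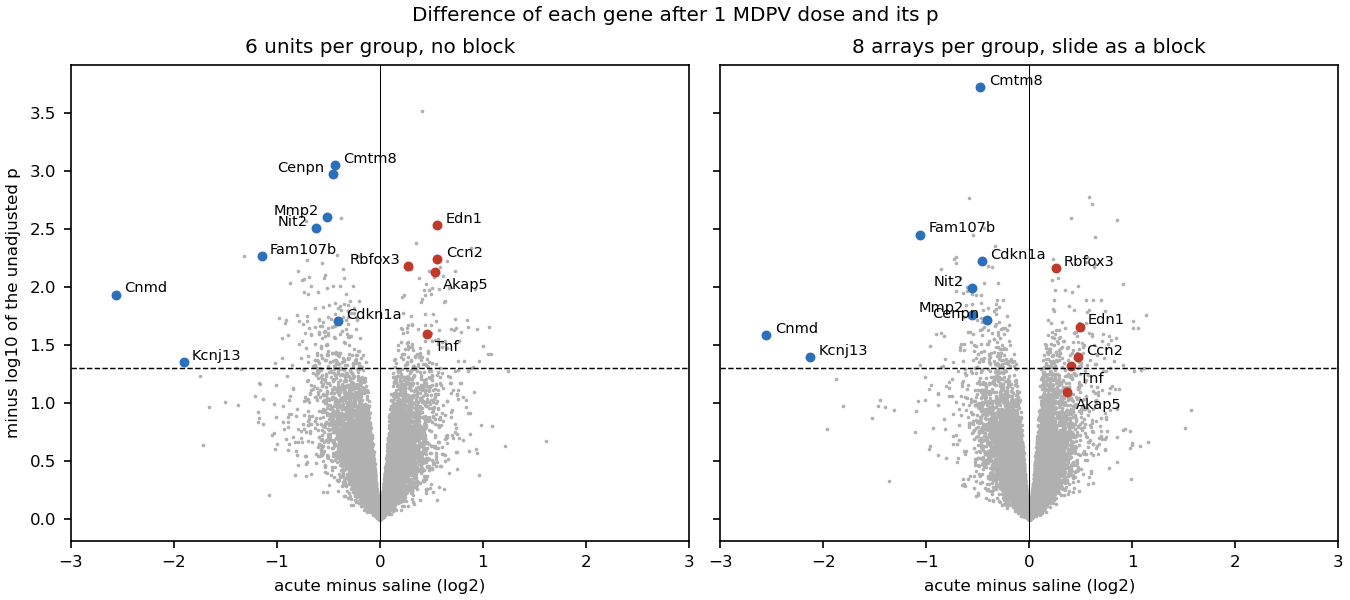
Each point is 1 of 20898 genes, with its acute minus saline difference (log2) on the x axis and minus log10 of its unadjusted limma p on the y axis, from 6 averaged units per group on the left and from all arrays with slide as a block on the right. The dashed line marks an unadjusted p of 0.05, and the named genes, coloured by direction, lie among the others, none of them past an adjusted p of 0.05.

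Differences did not run the same way from slide to slide. Within slide 1 the median absolute difference between the acute and saline means was 0.148, within slide 2 it was 0.156 and within slide 3 it was 0.233. Of all genes, 2990 (14.3%) had the same sign on all 3 slides. Across genes, which are not independent replicates, the differences on slides 1 and 2 correlated at -0.03, those on slides 1 and 3 at -0.24 and those on slides 2 and 3 at -0.14. Each pair of slides shares arrays with the same title letters. The differences with and without slide as a block correlated at 0.92 over genes, and those with and without saline replicate 4 at 0.87.

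Among genes with a symbol, those with the smallest unadjusted p in each direction are described next, as values, since none passed the test over all genes. Most were read by a single probe of 60 bases. The first 30 bases of the probes behind some of these genes are given in lower case as the array files list them, with positions on the rat build rn4 from the same files. They identify which stretch of a transcript each value stands for.
Edn1, chr17:28304023-28304082, minus strand: catttcagggagaaactccaaagtccatgc
Akap5, chr6:98928387-98928446, plus strand: tcgtcaagaatgctatcgagttgtctgtag
Cmtm8, chr8:119209277-119209336, minus strand: gaatcccactgttaaaacaaaacaaaagac
Cenpn, chr19:47050562-47050621, plus strand: tgcctcgtcaagttctccagcccacatctt

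Edn1 led the genes with a symbol that were higher after MDPV. One transcript without a symbol had a smaller p, ENSRNOT00000030541, at a difference of 0.41 (SE 0.09). Edn1 encodes endothelin-1, a peptide that constricts vessels. Its value was -5.75, -5.14 and -4.67 on the lowest, median and highest acute array, and -6.41, -5.61 and -5.21 on the saline arrays. All acute arrays but the lowest, 7 of 8, lay above every saline array. The difference was 0.56 (SE 0.16, 95% interval 0.22 to 0.89, unadjusted p = 0.00289), or 1.47-fold. The probe was dim, and exceeded background clearly on 6 acute arrays and on 4 saline ones. The difference was 0.71 on slide 1, 0.85 on slide 2 and 0.04 on slide 3. With slide as a block it was 0.49, and without saline replicate 4 it was 0.47.

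Ccn2, which encodes a matricellular growth factor formerly named Ctgf, had a difference of the same size. The acute arrays ran from -2.31 over a median of -1.84 to -1.23, and the saline arrays from -3.17 over -2.29 to -1.69. Saline arrays reached further down, and 4 of them lay below every acute array. The difference was 0.56 (SE 0.18, interval 0.18 to 0.93, unadjusted p = 0.00575), with 0.23, 0.78 and 0.24 on the 3 slides. Without saline replicate 4 it was 0.41. The related Ccn1 was read at a difference of 0.20 (SE 0.22), with an interval that held 0.

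Among neuronal genes, Rbfox3 encodes NeuN, a splicing factor of mature neurons. Its acute arrays lay closely together, at 3.84, 3.95 and 4.05, while the saline arrays ran from 3.28 over 3.69 to 3.92. All acute arrays were above the saline median and 5 of 8 were above every saline array. The difference was 0.28 (SE 0.09, interval 0.09 to 0.47, unadjusted p = 0.00662). It kept its size with slide as a block, at 0.26, and was 0.20 without saline replicate 4. The second Rbfox3 probe gave 0.07 (SE 0.18).

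Akap5 encodes an anchoring protein that holds protein kinase A and calcineurin at the postsynaptic membrane. Its acute arrays ran from 1.43 over 1.92 to 2.56 and its saline arrays from 0.86 over 1.54 to 2.50. The ranges overlapped for most of their length. The difference was 0.53 (SE 0.18, unadjusted p = 0.00744), but it was -0.21 on slide 1, 1.03 on slide 2 and 0.34 on slide 3. With slide as a block it was 0.37.

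The other genes leading in this direction were Zfp324, Hcst, Actn3, Tmem51, Rai2, Cdc25c, Pkig and Wnt7a. Pkig encodes an inhibitor of protein kinase A, and its difference was 0.24 (SE 0.08), with -0.13 on slide 1. Wnt7a, a secreted Wnt ligand, had a difference of 0.21 (SE 0.08) and -0.03 on slide 1. Rai2 had the largest share of its difference on slide 1, at 1.19, against 0.34 and 0.31 on slides 2 and 3. Hcst, an adaptor of killer cell receptors also known as DAP10, was 0.73 higher (SE 0.24, interval 0.22 to 1.23). Its probe was dim, well above background on 6 acute and 4 saline arrays. Rai2 was so on 7 acute and 4 saline arrays, and Actn3 and Cdc25c each on 5 acute and 3 saline arrays. Zfp324 was well above background on 4 acute arrays and 1 saline array, so its 0.58 (SE 0.19) rests on values near background. Actn3, Cdc25c and Zfp324 reached the 0.5 share of arrays for keeping a probe in the acute group, where they were higher. They did not reach it in the saline group, so the filter favoured this direction for them.

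**Figure D2:**
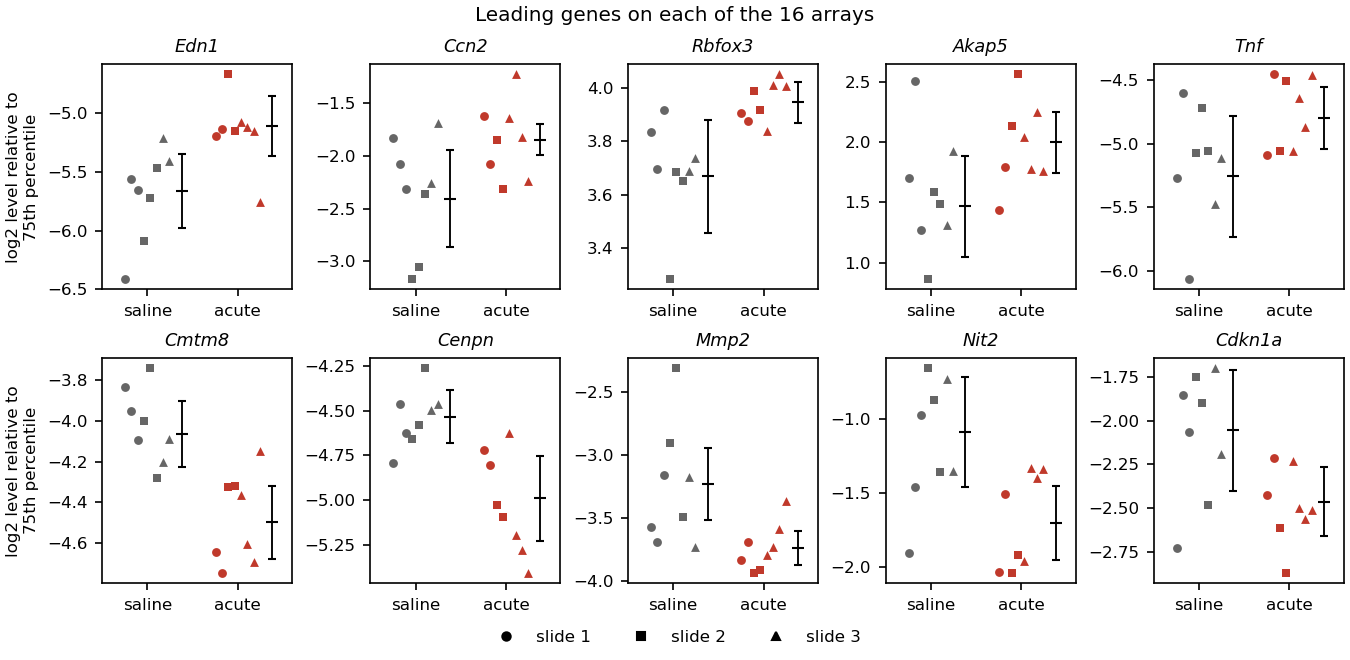
Each point is the log2 level of a gene on 1 array relative to the array's 75th percentile, for 8 saline (grey) and 8 acute (red) arrays, with a shape for each slide, and the bar beside them is the mean and SD of the 6 averaged units. Every gene overlaps between the groups. For Edn1 1 acute array lies inside the saline range, and for Ccn2 the pair of lowest saline arrays are from slide 2.

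Cmtm8 led the genes with a symbol that were lower after MDPV. It encodes a membrane protein with a MARVEL domain. Its acute arrays read -4.75, -4.48 and -4.15 at the lowest, median and highest, and its saline arrays -4.28, -4.05 and -3.74. Only 1 acute array reached into the saline range. The difference was -0.43 (SE 0.11, interval -0.66 to -0.20, unadjusted p = 0.000881). It was -0.73, -0.32 and -0.30 on the 3 slides. With slide as a block, and arrays sharing a letter as separate samples, it was -0.47 (unadjusted p = 0.000188).

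Cenpn, which encodes a centromere protein, came next. Its acute arrays ran from -5.41 over -5.06 to -4.62, and its saline arrays from -4.80 over -4.54 to -4.26. Acute arrays past the saline range numbered 6 of 8. The difference was -0.46 (SE 0.12, interval -0.70 to -0.21, unadjusted p = 0.00106), with -0.13, -0.56 and -0.65 on the 3 slides. Without saline replicate 4 it was -0.48.

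Mmp2 encodes gelatinase A, a protease that cuts matrix proteins. On the probe that stands for the gene the acute arrays lay between -3.94 and -3.37 with a median of -3.76, and the saline arrays between -3.73 and -2.31 with a median of -3.34. Every acute array was below the saline median. The difference was -0.51 (SE 0.14, interval -0.81 to -0.20, unadjusted p = 0.00248), and -0.44 without saline replicate 4. By slide it was -0.29, -1.02 and -0.17. A second Mmp2 probe, well above background on 5 acute and 3 saline arrays, gave -0.07 (SE 0.30).

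Nit2 encodes an omega-amidase of glutamine metabolism. Its acute arrays ran from -2.04 over -1.71 to -1.33 and its saline arrays from -1.90 over -1.16 to -0.66. Acute arrays past the saline range numbered 4 of 8. The difference was -0.62 (SE 0.18, unadjusted p = 0.00309), on the same side on each slide at -0.32, -1.02 and -0.46.

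The other genes leading in this direction differed in how well they were measured. Parp14, an ADP-ribosyltransferase linked to cytokine signalling, read -0.35 (SE 0.12), and Mthfd1, an enzyme of folate metabolism, -0.27 (SE 0.09). Parp14 and Mthfd1 were well above background on all 16 arrays, as was Birc6, described below with its probes. Ptger3, a prostaglandin E receptor, read -0.71 (SE 0.20) from values between -8.70 and -4.79, with 5 acute and 3 saline arrays well above background. Exo1, Ccdc175 and Nxnl2 were also dim, each on 5 or fewer arrays of a group, and their differences were -0.80 (SE 0.26), -0.53 (SE 0.18) and -0.88 (SE 0.30). Nxnl2 reached the 0.5 share of arrays for keeping a probe in the saline group, where it was higher, and not in acute.

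Fam107b shows how far 1 spot can carry a value. Its difference was -1.15 (SE 0.36) with 7 acute arrays, after a spot marked as uneven or as an outlier was left out. With that spot kept the difference was 0.96, and 0.74 in the authors' value table. Apart from each probe tested alone, Fam107b was the only one of the 24 leading genes to take the other sign in any alternative. The alternatives use the arrays by which these genes were chosen, so a kept sign is not independent support. Tested alone, a second probe took the other sign in Birc6, at 0.16, and in Tmem51, at -0.05.

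**Figure D3:**
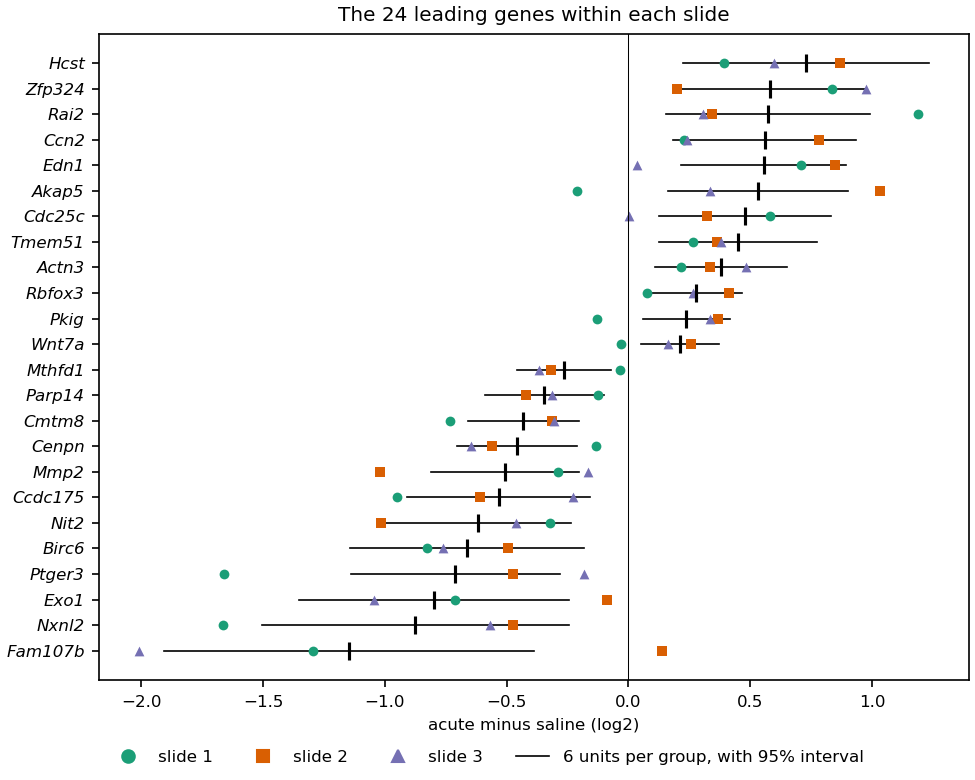
The 24 leading genes, with the acute minus saline difference (log2) from 6 units per group as a vertical bar, its 95% interval as a line, and the difference within slides 1, 2 and 3 as coloured points. The points of 20 genes stay on 1 side of 0 on all 3 slides, and those of Akap5, Pkig, Wnt7a and Fam107b do not. The genes were chosen for a small p on these same arrays, which favours 1 sign, so the slides do not replicate them.

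Probes of 1 gene did not always read alike, which bears on any single value above. Birc6, an inhibitor of apoptosis, read -0.66 (SE 0.23) on the probe that stands for the gene, while a probe at another place in the gene gave 0.16 (SE 0.16). The array has a pair of probes for Tmem231 with the same position, and their first bases are the same. One gave -1.66 (SE 0.98) and the other -0.01 (SE 0.22). On the first, saline replicate 6 read 1.94 while the saline median was -5.78, and the second had no saline array above -5.32. Homer1, a scaffold of the postsynaptic density whose short form is an immediate early transcript, had 3 probes. They gave 0.18 (SE 0.16), 0.28 (SE 0.19) and 0.58 (SE 0.39), and the first, which stands for the gene, gave 0.005 without saline replicate 4. All 3 intervals held 0, and on each probe the lowest saline array was below the lowest acute array. The first 30 bases of these probes are shown because the values differ between them.
Birc6, chr6:20655096-20655155, minus strand, difference -0.66: cttaaggagatccagtttaattcaaggtga
Birc6, chr6:20704067-20704126, minus strand, difference 0.16: acactgctaacaaaatcatcaccgtccctg
Tmem231, chr19:41854632-41854691, minus strand, both probes: aaagaatcaaaatcttcgtgtttcagaacc
Homer1, probe 1, difference 0.18: gcaggggtcaatcccatctgtgtataagtt
Homer1, probe 2, difference 0.28: cacaggtgctactggagtttgcattagtat
Homer1, probe 3, difference 0.58: aacagaagctcattgacaaactaaagtgac

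Gene lists were then read by role, from 33 lists with 488 different measured genes. None of these genes passed an adjusted p of 0.05. At an unadjusted p under 0.05, 3 were higher (0.615%) and 9 were lower (1.84%), beside the 0.627% and 0.967% of all genes. The 3 higher genes were Edn1, Ccn2 and Tnf. The 9 lower ones were Mmp2, Abcb1a, Cdkn1a, Aqp1, Kcne2, Kcnj13, Cfap126, Prkcd and Pomc. Of these 9, the last 6 in that order belong to lists that mark tissue next to the striatum. The median difference of the 488 was -0.001, and 49.6% were higher, against 49.1% of all genes.

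Dopamine receptors and their coupling proteins read slightly higher as a list, 12 of 14 measured members with a median of 0.15 and none at an unadjusted p under 0.05. Drd1, the D1 receptor, lay between 2.69 and 3.25 on the acute arrays with a median of 3.09. On the saline arrays it lay between 1.89 and 3.39 with a median of 2.85, so that the saline range enclosed the acute one. The difference was 0.29 (SE 0.20, interval -0.13 to 0.71). Drd2, the D2 receptor, ran from 2.76 over 3.30 to 3.65 on the acute arrays and from 1.90 over 3.14 to 3.88 on the saline arrays, with a difference of 0.25 (SE 0.23). Adcy5, the main adenylyl cyclase of the striatum, read 0.25 (SE 0.20). Ppp1r1b, which encodes DARPP-32, gave 0.12 (SE 0.25). Adcy5 read 0.11 and Ppp1r1b -0.15 without saline replicate 4.

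This small shift changed with saline replicate 4, whose summed level of this list, 49.1, was the lowest of the 16 arrays. Leaving out the saline array with the lowest level lowers the difference by selection, and the cause of the shift was not tested. Without saline replicate 4 the median of the dopamine list was -0.01, with 7 of 14 members higher. The differences of Drd1 and Drd2 were then 0.12 and 0.04. Within slide 2, which holds that array, the list's median was 0.44, while it was -0.02 on slide 1 and -0.02 on slide 3. With slide as a block the median was 0.05.

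The other lists of projection neurons behaved alike in these respects. Markers of the direct and indirect pathways were higher in 15 of 16 members with a median of 0.23, and in 9 of 16 with a median of 0.01 without saline replicate 4. Gpr6, an orphan receptor of indirect pathway neurons, had the largest difference of the list at 0.60 (SE 0.31, interval -0.05 to 1.25), and the muscarinic receptor Chrm4 read 0.26 (SE 0.17). Without that array Gpr6 read 0.34 and Chrm4 0.10. Adenosine receptors and phosphodiesterases had a median of 0.13, or -0.03 without that array, and Adora2a itself 0.28 (SE 0.24) or 0.05. Projection neuron transcription factors had 9 of 11 members higher at a median of 0.12, or 0.01 without the array. Foxp1 read 0.17 (SE 0.24) and Bcl11b, which encodes CTIP2, 0.24 (SE 0.19). Without the array Foxp1 read -0.06 and Bcl11b 0.11.

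Striatal peptides and opioid receptors gave a median of 0.05, with 8 of 15 members higher. Pdyn, which encodes prodynorphin, ran from 1.74 over 1.87 to 2.69 on the acute arrays and from 1.24 over 1.75 to 2.43 on the saline arrays. Its difference was 0.33 (SE 0.20, interval -0.10 to 0.76), with -0.30 on slide 1, 0.90 on slide 2 and 0.30 on slide 3. Penk, which encodes proenkephalin, had a difference of 0.21 (SE 0.19), or 0.03 without saline replicate 4. Pdyn had the highest difference of the list, and Pnoc, which encodes the nociceptin precursor, the lowest at -0.40 (SE 0.33), or -0.04 without that array.

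Immediate early genes showed no shared direction a day after the dose. Of 18 measured, 12 were higher at a median of 0.05, with slide as a block 7 were higher at -0.03, and without saline replicate 4 the median was -0.04. Fos ran from -5.64 over -4.42 to -4.23 on the acute arrays and from -5.03 over -4.62 to -4.05 on the saline arrays. On 3 of 8 acute arrays Fos lay below every saline array, and 1 saline array lay above every acute one. The difference was -0.16 (SE 0.28), with an interval of -0.76 to 0.44. Arc, which encodes a synaptic regulator of AMPA receptors, gave 0.17 (SE 0.30), and -0.03 without saline replicate 4. Nr4a2 had the largest value of the list at 0.51 (SE 0.50), and 0.12 without that array. Feedback regulators of the ERK kinases were higher in 12 of 16 at a median of 0.04. Dusp1, a phosphatase of that pathway, read 0.40 (SE 0.28) and Dusp6 0.12 (SE 0.14).

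Genes of growth factors had a median of -0.05, with 7 of 19 higher. Bdnf gave 0.04 (SE 0.43), an interval of -0.86 to 0.94 that leaves a near 2-fold change in either direction possible, since its arrays ranged from -7.71 to -4.07. Bdnf read -0.18 without saline replicate 4. Its receptor Ntrk2 was measured more closely, at -0.11 (SE 0.10, interval -0.32 to 0.09) on the probe that stands for the gene. A probe about as bright gave 0.08 (SE 0.09), and the other Ntrk2 probes gave values between -0.18 and 0.26. The circadian clock list had a median of 0.04, with Per1 at 0.06 (SE 0.15) and Per2 at 0.05 (SE 0.11). Glucocorticoid response genes had a median of -0.02, with 6 of 13 higher. In that list the receptor Nr3c1 read -0.08 (SE 0.14) and its chaperone partner Fkbp5 0.18 (SE 0.14). The list's median was 0.02 without saline replicate 4, where Nr3c1 read -0.18 and Fkbp5 0.05.

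Cdkn1a, which encodes the cell cycle inhibitor p21, was the one glucocorticoid response gene at an unadjusted p under 0.05. Its acute arrays lay between -2.87 and -2.22 with a median of -2.50, and its saline arrays between -2.73 and -1.70 with a median of -1.98. Of the saline arrays, 6 of 8 were above every acute array. The difference was -0.41 (SE 0.16, unadjusted p = 0.0195), -0.46 with slide as a block and -0.35 without saline replicate 4.

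Genes that make, carry or break down monoamines had a median of -0.04, with 4 of 10 higher. Th, the rate-limiting enzyme of dopamine synthesis, read -0.27 (SE 0.23). Serotonin and adrenergic receptors had a median of 0.01, GABA genes -0.03, glutamate receptors 0.01 and endocannabinoid and muscarinic genes 0.02. Serotonin and adrenergic receptors were at -0.02 without saline replicate 4, glutamate receptors at -0.01 and endocannabinoid and muscarinic genes at -0.02. Within them Gad1, which makes GABA, was read closely at -0.03 (SE 0.11, interval -0.26 to 0.20), and Gria1, an AMPA receptor subunit, at -0.15 (SE 0.11). Cnr1, the cannabinoid receptor, gave -0.07 (SE 0.25). Without that array Gad1 read 0.02 and Cnr1 -0.23. Interneuron markers had 5 of 16 higher at a median of -0.09. Pvalb among them read -0.40 (SE 0.35), with -1.89 on slide 2 and 0.55 and 0.26 on slides 1 and 3, while Chat, the marker of cholinergic cells, read -0.04 (SE 0.18). Pvalb read -0.16 and Chat 0.10 without saline replicate 4.

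At the synapse, the postsynaptic density list was higher in 17 of 19 members at a median of 0.08. Without saline replicate 4, 6 of 19 were higher at a median of -0.01. Dlg4, which encodes PSD-95, read 0.01 (SE 0.10, interval -0.20 to 0.21), or -0.01 without that array. The vesicle release list had a median of 0.05, with Snap25 at 0.09 (SE 0.16) and Syt1 at 0.10 (SE 0.12). That median was -0.02 without saline replicate 4, where Snap25 read -0.04 and Syt1 0.01.

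Stress and immune lists stayed near 0. Oxidative stress genes had a median of 0.002, or -0.001 without saline replicate 4, and all 19 had intervals within 1 log2 unit of 0. Hmox1, a heme-degrading enzyme induced by oxidants, read 0.14 (SE 0.21), and Nqo1 -0.03 (SE 0.14). Heat shock and unfolded protein genes had a median of -0.01, with the chaperone Hspa5 at 0.05 (SE 0.09) and Hspa1a at -0.12 (SE 0.10). Cytokine and apoptosis genes had a median of 0.02 and 1 of 17 at an unadjusted p under 0.05. That gene was Tnf, tumour necrosis factor. It ran from -5.09 over -4.75 to -4.45 on the acute arrays and from -6.07 over -5.09 to -4.60 on the saline arrays. All acute arrays lay at or above the saline median. The difference was 0.46 (SE 0.19, interval 0.06 to 0.85, unadjusted p = 0.0254), on a probe well above background on 6 acute and 5 saline arrays.

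Interferon response genes were lower in 13 of 16 at a median of -0.10, none at an unadjusted p under 0.05. Isg15 read -0.54 (SE 0.31), with 0.27 on slide 1 and -1.24 on slide 2, and Irf7 -0.48 (SE 0.35). The interferon median was -0.02 and Irf7 read -0.29 without saline replicate 4. The endothelin and vessel list, from which Edn1 comes, had 11 of 21 members higher at a median of 0.01. Ednra, a receptor of endothelin, read 0.08 (SE 0.32). Abcb1a, the drug efflux pump of brain vessels, read -0.50 (SE 0.18, unadjusted p = 0.0143) from a dim probe. Matrix genes, the list of Ccn2 and Mmp2, had 7 of 17 higher at a median of -0.01, or 0.05 without saline replicate 4.

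**Figure D4:**
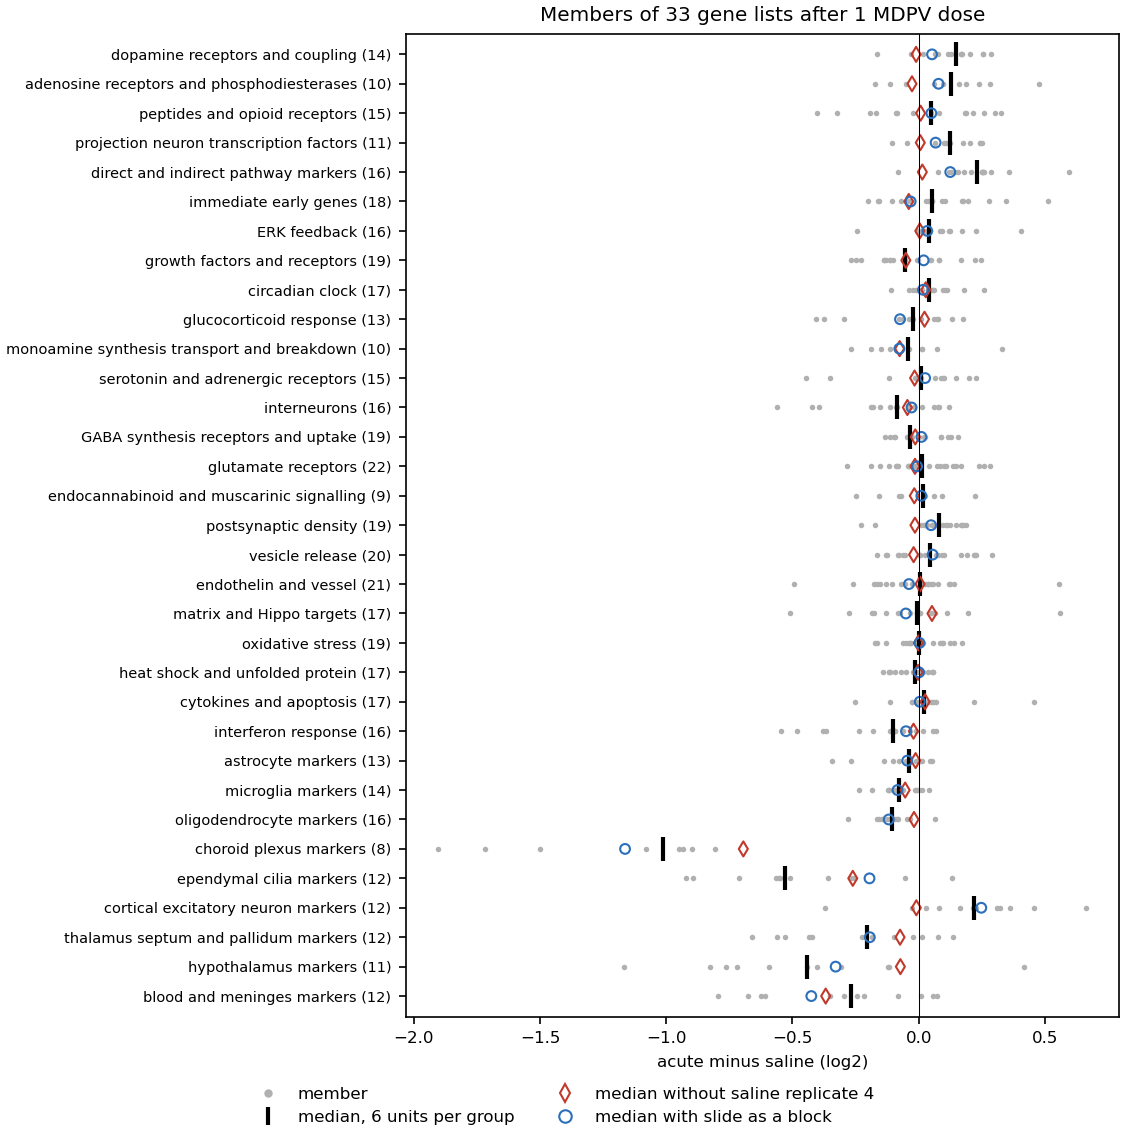
Grey points are the acute minus saline differences (log2) of the measured members of 33 lists, with their number in brackets, black bars are list medians from 6 units per group, red diamonds the medians without saline replicate 4, and blue circles those with slide as a block. The upper lists of projection neurons move from above 0 to about 0 without saline replicate 4, and choroid plexus markers lie farthest from 0.

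Lists of glial markers had medians between -0.10 and -0.04. Astrocyte markers had a median of -0.04, with Gfap at -0.27 (SE 0.29), or -0.15 without saline replicate 4, and Aqp4 at -0.08 (SE 0.12). Microglia markers had 2 of 14 higher at a median of -0.08, and 0 of 14 with slide as a block, again at -0.08. Itgam, which encodes an integrin of microglia and myeloid cells, read -0.24 (SE 0.14), and Aif1, which encodes IBA1, 0.01 (SE 0.08). Oligodendrocyte markers had 1 of 16 higher at a median of -0.10, with Mbp at -0.14 (SE 0.12). Without saline replicate 4 the oligodendrocyte median was -0.02 with 6 of 16 higher.

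Among the lists, the largest differences came from markers of tissue that borders the striatum. Choroid plexus, the epithelium in the ventricles that makes cerebrospinal fluid, was lower in 8 of 8 measured markers at a median of -1.01. Their summed level was 0.467 on the lowest acute array, 5.27 at the median and 32.2 on the highest, against 0.377, 24.3 and 79.8 on the saline arrays. On arrays with high sums the sum is mainly Ttr, whose log2 value reached 4.97 on the acute and 6.28 on the saline arrays. The summed range of the acute arrays lay inside that of the saline arrays. The median was -1.31 on slide 1, -1.94 on slide 2 and 0.39 on slide 3, and -0.69 without saline replicate 4. Kcnj13, a potassium channel of this epithelium, read -1.90 (SE 0.88, unadjusted p = 0.0444) and Aqp1, a water channel, -0.81 (SE 0.31). Ttr, which encodes transthyretin, read -1.08 with an SE of 2.13, or -0.40 without that array. The gene with the largest difference of all with a symbol, Cnmd, is in none of the lists and was at -2.56 (SE 0.91), from 2 acute and 4 saline arrays well above background. Folr1, Prr32 and Sostdc1 were also among the largest, and their intervals held 0. Cnmd, Kcnj13 and Prr32 reached the 0.5 share of arrays for keeping a probe in saline, where they were higher, and not in acute.

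Ependymal cilia markers were lower in 11 of 12 at a median of -0.53, or -0.19 with slide as a block and -0.26 without saline replicate 4. Cfap126 read -0.92 (SE 0.36). Hypothalamus markers had a median of -0.44, or -0.07 without saline replicate 4. In Oxt, which encodes oxytocin, that array read 1.99 against a group median near -2.16, and the difference was -0.76 (SE 0.54) with it and -0.08 without it. Pomc was the exception in that list, since its acute arrays read -2.91, -2.75 and -2.35 and its saline arrays -2.54, -2.38 and -2.17. Its difference of -0.31 (SE 0.12, unadjusted p = 0.0159) was -0.30 without that array. Markers of thalamus, septum and pallidum had a median of -0.21, or -0.07 without saline replicate 4, and Prkcd, a kinase common in thalamus, read -0.53 (SE 0.24), or -0.27 without it. Cortical markers had 10 of 12 higher at a median of 0.22, or -0.01 without it. Blood and meninges markers had a median of -0.27, or -0.43 with slide as a block. Hbb, a haemoglobin chain, read -0.29 (SE 0.22, unadjusted p = 0.204), or -0.45 with slide as a block (unadjusted p = 0.0200). The fit with slide took arrays sharing a letter as separate samples. The part of these tissues in the differences of other genes was not tested.

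**Figure D5:**
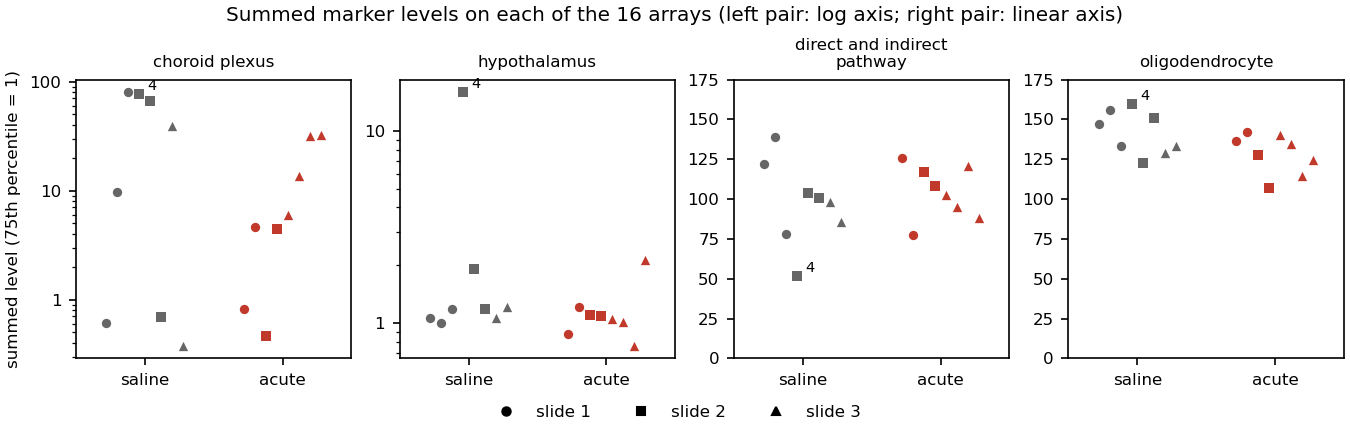
Each point is the sum over a list's measured markers of their levels on 1 array, with the array's 75th percentile set to 1, for saline (grey) and acute (red) arrays and with a shape for each slide. The axes of the left pair of panels are logarithmic. On arrays with a high choroid plexus sum, that sum is mainly Ttr. The choroid plexus sums of the acute arrays lie inside the wider range of the saline arrays, 4 of which are above every acute array, and saline replicate 4, marked 4, is the highest for hypothalamus and the lowest for the pathways of projection neurons.

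Rats given MDPV on all 5 days were compared with the same saline arrays, so the values are set side by side only. Edn1 read 0.56 after 1 dose and 0.47 after 5, Ccn2 0.56 and 0.51, Rbfox3 0.28 and 0.22, and Mmp2 -0.51 and -0.38. Cmtm8 read -0.43 and -0.14, Cenpn -0.46 and -0.17, Nit2 -0.62 and -0.20, Akap5 0.53 and 0.16, and Tnf 0.46 and 0.23. The difference between 1 and 5 doses was not tested here.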

How the data were processed

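RNA of 24 samples was hybridised with Cy3 to one-colour arrays. Per the file headers, the processed signal is an intensity after background subtraction and detrending within the array, with flags for each spot, from Agilent Feature Extraction (version 10.7 per the submitters' processing notes). The values in the deposited table are on the log2 scale and in the same rank order, and their normalization is not given in the sources used here. Log2 intensities minus each array's 75th percentile were used. Control, uneven and outlier spots were left out (312 missing values). A probe was kept if at least a 0.5 share of some group's arrays had it well above background (26259 of 45598). A gene was its brightest kept probe, and 4186 genes had more than 1. Names came through RefSeq accession (GRCr8) for 21109 probes, through symbol or synonym for 7108, and stayed as the files give them for 17381. limma 3.58.1 in R 4.3.3 (lmFit, contrasts, eBayes, Benjamini-Hochberg over all genes, threshold 0.05) was fitted to 18 units, 6 per group, with the third group sharing the spread; it was tested on simulated data.

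P-values measure the spread between these samples. The genes named are, with a symbol, the 12 smallest p and 6 largest differences per direction, the first 2 measured members of each list, and members at an unadjusted p under 0.05. A few results of this rule are not reported here. Other genes were chosen after their values were seen, and the lists with earlier results of these data known. Alternatives were quantile normalization, the authors' values, normexp (offset 50), other filters on dim probes, each probe alone, 24 arrays as independent samples, letter as a random block, H titles only, slide as a block, 2 groups only, array weights, outlier spots kept and each unit left out. Slide with row as blocks, and slide with the share of detected spots, were chosen after seeing the data.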

Additional observations from a re-analysis of the deposited data

Results flagged for a closer look

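Among the named genes, 18 of 211 sets of 6 units had a unit whose gap to its neighbour exceeded the 95% critical value. Many of these genes were named for their values and the sets share units, so this share has no expected value to be set against. Saline replicate 4 accounted for 7 of the 18. It read 2.60 in Avp (group median -4.48), 1.99 in Oxt (-2.07), 0.30 in Slc17a6 (-2.34) and 2.49 in Ntrk2 (1.995). It read -3.85 in Foxj1 (-3.21), -1.14 in Gria1 (-0.67) and -2.76 in Hspa1a (-3.21). Avp and Oxt encode hypothalamic peptides and Slc17a6 a glutamate transporter of thalamus.

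Acute replicate 3 read -3.84 in Ttr (2.25), -8.90 in Kcnj13 (-6.25) and -5.99 in Bdnf (-4.86). Ttr and Kcnj13 are markers of choroid plexus. Acute replicate 2 read -1.98 in Slc17a6 (-2.72) and 2.63 in Syt1 (2.46). The mean of acute replicates 4 and 6 read -5.58 in Exo1 (-6.59) and -5.74 in Ptger3 (-6.69).

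A few genes of the largest differences turned on 1 unit each. Acute replicate 7 read 0.96 in Lhx3 (-4.75), acute replicate 5 read -0.57 in Shcbp1l (-6.48), and in Tmem231 saline replicate 6 read 1.94 (-5.67) and acute replicate 7 -6.92 (-5.98). Without that acute unit the Lhx3 difference was 0.14, and for Shcbp1l it was -0.05.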

How the results depend on the processing

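No alternative gave a gene past an adjusted p of 0.05 in limma, and the smallest adjusted p over all of them was 0.567, with the letter as a random block. Counts at an unadjusted p under 0.05, 131 higher and 202 lower, changed more. They were 52 and 89 among the 14169 genes well above background on all 24 arrays, 372 and 348 with array weights, 336 and 354 with the letter as a random block, and 463 and 333 with normexp. With only acute and saline units 86 were higher and 174 lower, and with H titles only 172 and 316. Leaving out each unit gave 107 to 320 higher and 113 to 310 lower. With slide as a block the 313 genes became 501 under normexp and 251 to 633 with a unit left out. With row added as a block there were 426, and with the share of detected spots 433. For all 8 arrays of a group, 1 gene lay wholly above under quantile normalization and in the authors' value table, each time LOC100913005, and another, LOC103690340, under normexp. With a unit left out, 0 to 2 genes lay wholly above and 0 to 1 below. Of 33 list medians, 12 took the other sign without saline replicate 4 and 10 with array weights, and of 106 named genes 12 and 14. No paired analysis was possible because acute and saline arrays come from different rats. The causes were not tested.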

Other observations

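Lhx3, Foxp3, Paep, Adat1, Shcbp1l and Cplx3 had the largest differences in the higher direction. Cplx3, a complexin of ribbon synapses and deep cortical neurons, read 1.00 (SE 0.43), or 0.67 without saline replicate 4. Foxp3, a transcription factor of regulatory T cells, spread from -5.92 to -0.60 on the acute arrays and from -6.47 to -0.91 on the saline arrays, and its difference was 0.96 (SE 1.16). Paep was not well above background on any saline array and on 4 of 8 acute arrays, so no fold is given. Adat1, an RNA editing enzyme, read 0.94 (SE 0.38), with 5 acute arrays and 1 saline array well above background. Paep, Adat1 and Shcbp1l reached the 0.5 share of arrays for keeping a probe in acute, where they were higher, and not in saline.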
